A study of Mus musculus with 8 samples.

Results

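The 10 genes described here belong to the BCL2 family, whose proteins decide at the outer mitochondrial membrane whether a cell survives or dies by apoptosis. They were taken by name, by a rule that uses no measured value: the survival genes Bcl2, Bcl2l1 and Mcl1, the effector genes Bax and Bak1, and the BH3-only genes Bcl2l11, Bid, Bad, Bbc3 and Pmaip1. The choice was nevertheless made with earlier results of these data known. All 10 were found, by Entrez identifier matched to a mouse symbol, among the 24112 genes of each deposited table. RNA came from Lineage-Sca1+Kit+ (LSK) cells, a sorted marrow population rich in hematopoietic stem cells and their first progeny, of C57BL/6 mice after transplantation. In the knockout group (KO, 4 libraries) the transplanted marrow was Traf6-/-;Vav-Cre+, lacking Traf6 and carrying a Cre recombinase whose Vav promoter is active in blood cells, and in the wild-type group (WT, 4 libraries) it was Vav-Cre+. The study asked whether TRAF6, a ubiquitin ligase that relays Toll-like and interleukin-1 receptor signals to NF-κB, sustains a basal NF-κB activity in these cells. The labels give no age, no number of mice per library and do not say whether each library is a separate animal. The p-values therefore weigh only library-to-library spread, which may be technical.

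Survival proteins of the family hold the effectors BAX and BAK in check. When released or directly activated, BAX and BAK form pores in the mitochondrial outer membrane, cytochrome c leaves, and caspases are activated. BH3-only proteins carry death signals to this point by binding survival proteins or the effectors. In mouse blood, Mcl1 is required for survival of hematopoietic stem cells, and Bcl2l1 is among the survival genes known to be induced by NF-κB.

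The values are read as RPKM, read numbers corrected for gene length and for library size, a unit inferred from the values. On that reading levels can be compared between genes. Traf6 was at 0.613, 0.818, 0 and 0.00721 RPKM in KO1 to KO4, against 14.9, 3.52, 9.40 and 7.10 RPKM in WT1 to WT4. All WT libraries, KO1 and KO2 ran in lane 4, and KO3 and KO4 in lane 5, which held no WT library, so that lane and genotype cannot be told apart for these 2. Of the tested genes with at least 1 RPKM in the 7 other libraries, 17.3% lay under 0.1 RPKM in KO3 and 3.58% in KO4, against 2.35% in WT2 and at most 0.126% in each of the other 5. KO3 thus stood furthest apart, and the lane 4 library WT2 lay near KO4. A gene at 0 is therefore called listed at 0, which does not show that its RNA was absent. Of 9 markers of the sorted population, Kit was at 50.6 to 113 RPKM in KO and 73.8 to 83.1 RPKM in WT. Cd34 was at 178 to 284 RPKM in KO and 220 to 278 RPKM in WT. Slamf1 was listed at 0 in KO3, KO4 and WT2, and Mecom in KO3, while the rest were above 0 in every library. Hlf was at 1.13 RPKM in KO3, against 5.55 to 35.8 RPKM in the other KO libraries and 22.7 to 50.9 RPKM in WT. Procr was at 5.40 to 14.6 RPKM in KO and 14.2 to 28.3 RPKM in WT. Flt3 was at 31.4 to 54.0 RPKM in KO and 59.3 to 89.2 RPKM in WT. Mecom was at 0 to 3.36 RPKM in KO and 4.99 to 10.3 RPKM in WT. For Flt3 and Mecom all KO values thus lay below all WT values. Separation in either direction held for 5.92% of genes tested. The ranges of the other LSK markers overlapped. Of 8 B-cell markers 4, Cd79a, Ms4a1, Pax5 and Igll1, were listed at 0 in all 8 libraries, while Cd79b was at 6.65 to 16.1 RPKM in KO and 4.78 to 16.3 RPKM in WT. Summed, the B-cell markers lay at 6.65 to 18.01 RPKM in KO and 5.91 to 22.1 RPKM in WT. Of 7 T and NK cell markers Cd3g was at 0 throughout, and their sum, 385 to 726 RPKM in KO and 402 to 459 RPKM in WT, was nearly all Nkg7, at 376 to 723 RPKM in KO and 398 to 455 RPKM in WT. Summed over the 7 granulocyte-monocyte progenitor markers, KO libraries lay at 2108 to 7970 RPKM and WT libraries at 617 to 1837 RPKM. Mpo was the largest part of this sum in every library, at 1367 to 3687 RPKM in KO and 337 to 972 RPKM in WT. All KO values lay above all WT values for Mpo, Ctsg and Irf8. The ranges overlapped for Elane, Prtn3, Ms4a3 and Cebpe. Summed over 9 LSK markers, libraries lay at 289 to 467 RPKM in KO and 434 to 544 RPKM in WT. The sum of the granulocyte markers was 168 RPKM in KO1, of which Lcn2 made up 142 RPKM. It was 0.219 to 35.9 RPKM in the other KO libraries and 0 to 10.3 RPKM in WT. The part of these differences in cell markers in the values below was not tested. In bulk RNA, fewer cells of a type and less RNA per cell cannot be told apart.

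Promoters are shown for Bcl2l1 and Bbc3 because they are the members with a match to the consensus of NF-κB sites, the pathway of the study's question, and for Bax because it had the largest SD over the 8 libraries on the log2(RPKM + 1) scale (2.49). The table of promoters held 15 start sites for 9 of the 10 members, as RefSeq gives them on GRCm38.p6. Each run below gives the 250 bases before a start site, 5′ to 3′ on the gene's strand, with the matching bases in capitals.
Bcl2l1, chr2:152830718-152830967, minus strand: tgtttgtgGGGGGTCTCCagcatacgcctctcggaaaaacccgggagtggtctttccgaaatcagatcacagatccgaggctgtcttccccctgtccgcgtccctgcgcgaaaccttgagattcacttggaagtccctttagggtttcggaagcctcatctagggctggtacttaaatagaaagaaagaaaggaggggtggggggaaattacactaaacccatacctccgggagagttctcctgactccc
Bbc3, chr7:16309333-16309582, plus strand: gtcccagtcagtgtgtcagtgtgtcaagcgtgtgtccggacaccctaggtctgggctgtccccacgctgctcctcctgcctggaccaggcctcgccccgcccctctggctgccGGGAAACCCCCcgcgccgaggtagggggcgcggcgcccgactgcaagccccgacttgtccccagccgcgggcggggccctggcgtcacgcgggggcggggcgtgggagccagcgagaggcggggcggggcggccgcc
Bax, chr7:45466899-45467148, minus strand: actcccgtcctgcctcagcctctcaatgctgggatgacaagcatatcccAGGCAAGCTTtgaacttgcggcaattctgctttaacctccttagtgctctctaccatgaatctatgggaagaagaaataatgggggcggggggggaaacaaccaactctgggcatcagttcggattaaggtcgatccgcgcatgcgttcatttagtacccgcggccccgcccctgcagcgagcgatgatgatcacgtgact
The Bcl2l1 match lies 242 to 233 bases before 1 of its 3 listed starts. The Bbc3 capitals span 137 to 127 bases before 1 of its 3 starts and hold 3 overlapping matches counted over both strands. In Bax, the capitals match the decamer consensus of p53 response elements, 201 to 192 bases before the start, on both strands. Searched on both strands over 300 bases around the start, the NF-κB consensus was found in 8.46% of 32851 promoters of the table and in 2 of 15 member promoters, and the p53 decamer in 8.36% and in 1. The FOXO motif GTAAACA was present for Bcl2l11 and Bbc3, against 3.65% of all promoters, and the GC box GGGCGG for 7 members in 10 of 15 promoters, against 35.7%. None of the 15 held TATAAA, which 13.6% of all promoters held. The GC content of the 15 was 49.3% to 78%, against a median of 52.7% over all promoters. Windows of some Bbc3 starts overlap, so the 15 are not independent. Differences from the shares over all promoters were not tested. These matches describe the letters only, and the start site used in LSK cells was not measured.

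The family's levels spanned a wide range. Averaged over all 8 libraries, Mcl1 was the most abundant member at 119.7 RPKM, followed by Bak1 at 38.4, Bax at 31.2, Bid at 27.4, Bcl2 at 14.5, Bcl2l1 at 7.98, Bad at 5.19, Bcl2l11 at 4.997, Pmaip1 at 3.90 and Bbc3 at 2.90 RPKM. Among genes tested, Mcl1 stood at the 94.7th percentile of mean level and Bbc3 at the 11.7th. Mcl1 exceeded Bak1 in 8 of 8 libraries, and Bid exceeded Bcl2, and Bcl2 exceeded Bcl2l1, in 7 of 8. The other neighbours in this order changed places often: Bak1 exceeded Bax in 5 of 8 libraries, Bcl2l1 exceeded Bad in 4, and Bcl2l11 exceeded Pmaip1 in 3. The ranges of all 9 neighbouring pairs overlapped.

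**Figure D1:**
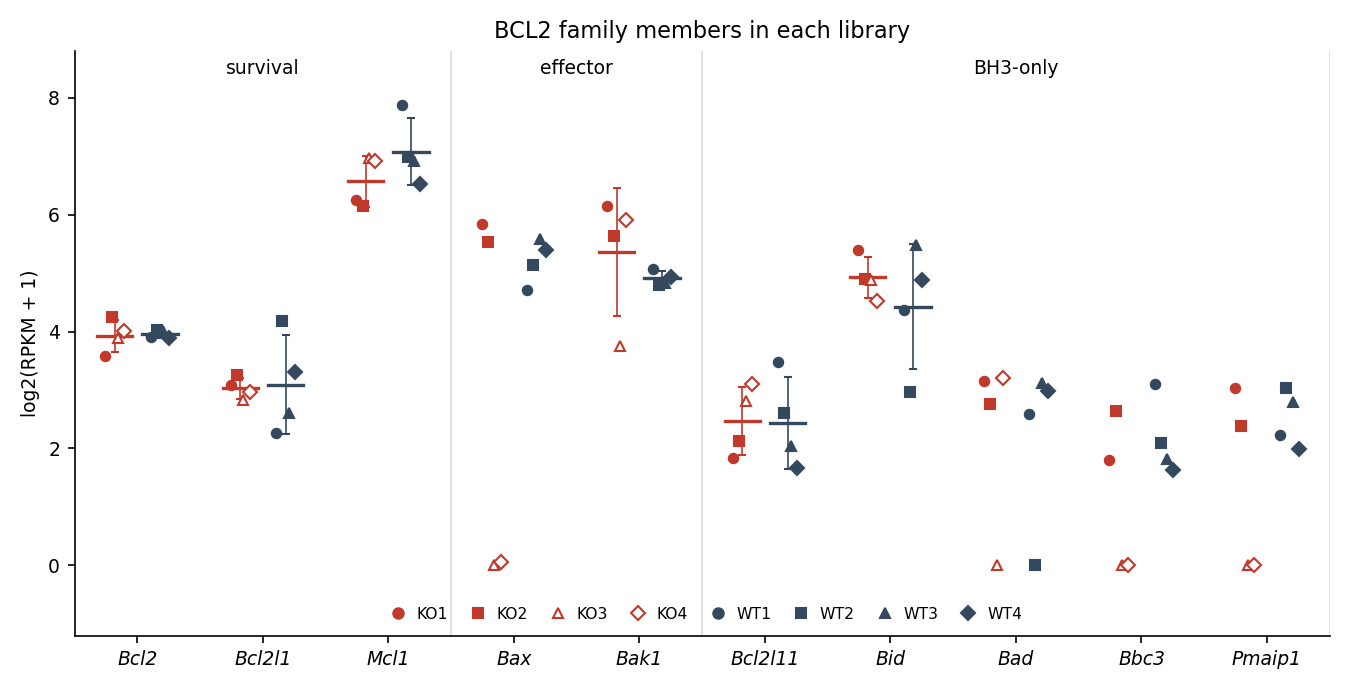
Level of each member in each library as log2(RPKM + 1), KO in red and WT in dark blue, with open symbols for the lane 5 libraries KO3 and KO4. Horizontal lines are group means and bars are SD (n = 4 per group), drawn only for members above 0 in every library. Bax, Bbc3 and Pmaip1 lie at or near 0 in KO3 and KO4 and well above 0 in the other 6 libraries.

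No member passed the test between KO and WT. With limma on log2(RPKM + 1), 0 of 10 members had an adjusted p under 0.05, as did 0 of all 11276 genes tested (0%), and 0 of 10 had an unadjusted p under 0.05, which 847 genes (7.51%) had. The deleted gene Traf6 was not called either, although all its KO values lay below all its WT values. Its log2 difference was -2.75 ± 0.53 (SE; limma adjusted p = 0.341), so a member that is not called is not thereby shown to be unchanged. In 0 of 10 members did all KO values lie on one side of all WT values, which held for 5.92% of genes tested. The log2 differences of 6 members were below 0, as were those of 61% of all genes tested, and those of 4 above 0, with a median of -0.04 over the members and -0.14 over all genes tested. Quantile normalization moved the median of all genes to 0.00 and that of the members to 0.16, with 6 members above 0. All 10 had passed the filter of at least 1 RPKM in at least 4 libraries. With n = 4 per group an exact 2-sided permutation test of 1 gene cannot give a p below 0.0286.

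Mcl1 encodes a short-lived survival protein that must be made continually. It was at 74.9, 69.5, 124 and 120 RPKM in KO1 to KO4, against 234, 126, 119 and 90.5 RPKM in WT1 to WT4. KO1 and KO2 were the lowest of the 8 libraries and WT1 was by far the highest, while KO3 and KO4 lay among the other WT libraries. The means were 97.2 ± 28.9 RPKM in KO and 142 ± 62.9 RPKM in WT (SD, n = 4 each), and the log2 difference was -0.50 ± 0.31 (SE; limma adjusted p = 0.704 over all genes; exact permutation p = 0.20). Without WT1 the log2 difference was -0.23, and in lane 4 alone it was -0.88 ± 0.34 (limma adjusted p = 0.397, or 0.789 with all libraries and lane as a covariate).

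Bcl2, the founding survival gene, varied least of the 10 on the log2(RPKM + 1) scale, with an SD of 0.19 over the 8 libraries. It was at 11.0, 17.95, 13.8 and 15.0 RPKM in KO1 to KO4, against 13.97, 15.4, 15.1 and 13.8 RPKM in WT1 to WT4. The means of 14.4 ± 2.90 RPKM in KO and 14.6 ± 0.777 RPKM in WT (SD, n = 4 each) differed by less than the SD of either group, with a log2 difference of -0.03 ± 0.25 (SE; limma adjusted p = 0.978). Its sign turned with the scaling, at 0.05 with quantile normalization and 0.08 with median centring. Of the exon bases of Bcl2, 6.09% are shared with the antisense gene D630008O14Rik, which has no row in the tables used here.

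Bcl2l1 encodes BCL-XL, and by splicing the short form BCL-XS, which a value for the whole gene does not separate. It was at 7.49, 8.52, 6.12 and 6.80 RPKM in KO1 to KO4, against 3.78, 17.0, 5.13 and 8.93 RPKM in WT1 to WT4. The KO libraries lay close together and within the WT range, whose ends were WT1 and WT2. The log2 difference was -0.06 ± 0.46 (SE; limma adjusted p = 0.978), and it was 0.31 without WT2. Its SD was 1.02 RPKM in KO and 5.96 RPKM in WT (n = 4 each).

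Bax encodes an effector that moves from the cytosol to mitochondria on activation. It was at 56.5, 45.4, 0 and 0.0454 RPKM in KO1 to KO4, against 25.1, 34.1, 47.0 and 41.2 RPKM in WT1 to WT4. KO1 was the highest of the 8 libraries and KO2 the third highest, below WT3, while KO3 listed the gene at 0 and KO4 near 0. Bax was 1 of 56 genes, out of 3966 with a mean of at least 20 RPKM over the lane 4 libraries, that lay under 0.1 RPKM in both KO3 and KO4 (1.41%). The log2 difference over all 8 libraries, -2.35 ± 1.35 (SE; limma adjusted p = 0.696), rests on these 2 libraries. Of the exon bases of Bax, 12.2% are shared with Gm45808 on the same strand, which has no row in the tables used here. In lane 4 alone its sign was the opposite, at 0.48 ± 0.27 (limma adjusted p = 0.553).

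Bak1 encodes the effector that resides on mitochondria. It was at 70.2, 48.4, 12.5 and 59.3 RPKM in KO1 to KO4, against 32.5, 26.7, 27.6 and 29.7 RPKM in WT1 to WT4. The WT libraries lay within a narrow band, with 3 KO libraries above it and KO3 below it. The means were 47.6 ± 24.99 RPKM in KO and 29.1 ± 2.60 RPKM in WT (SD, n = 4 each), a ratio of 1.63, with a log2 difference of 0.45 ± 0.46 (SE; limma adjusted p = 0.794; exact permutation p = 0.486). Without KO3 the log2 difference was 0.99, and in lane 4 alone it was 0.98 ± 0.22 (limma adjusted p = 0.273, unadjusted p = 0.00195). With all 8 libraries and lane as a covariate the same difference had an SE of 0.51 (limma adjusted p = 0.903, unadjusted p = 0.0899). In the GRCm38 annotation 25.5% of the exon bases of Bak1 are shared with Ggnbp1 on the other strand, and the use of strand in counting is not given in the sources used here. Ggnbp1 was at 1.49, 0, 0 and 0 RPKM in KO1 to KO4 and at 0.954, 0, 1.13 and 1.16 RPKM in WT1 to WT4.

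**Figure D2:**
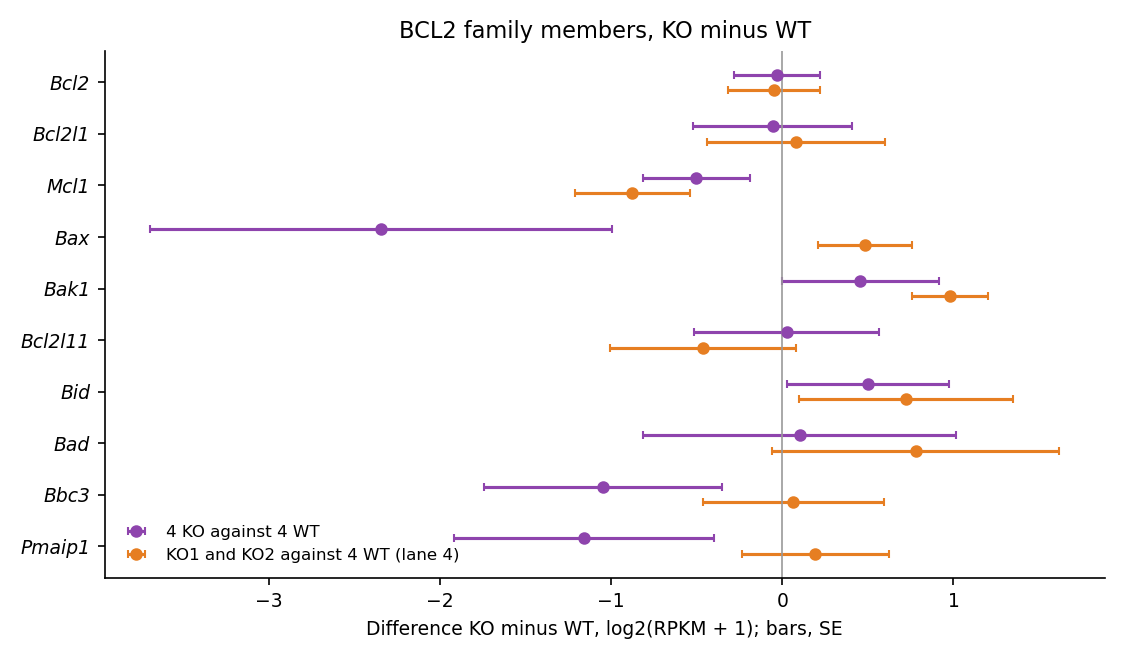
Difference KO minus WT of each member on the log2(RPKM + 1) scale with its SE, from limma on all 8 libraries (purple) and on the 6 lane 4 libraries (orange). Bax lies at -2.35 with all libraries and at 0.48 in lane 4, whereas Mcl1 lies below 0 and Bak1 above 0 in both.

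In lane 4, where KO is represented by KO1 and KO2 only, 2 of 10 members had both KO values on one side of all 4 WT values: Bak1 above and Mcl1 below. Such separation held for 24.2% of all genes tested, 10.7% above and 13.5% below, so the members' share lies near the background. The same 2 members had an unadjusted p under 0.05 in lane 4, against 11% of all genes, and 0 of 10 passed the adjusted threshold there, which 2 genes (0.0177%) passed. With lane as a covariate, 1 of 10, Mcl1, had an unadjusted p under 0.05, and 0 genes passed the adjusted threshold, with 658 under an unadjusted 0.05. In these 2 KO libraries Mcl1 averaged 0.508 and Bak1 2.04 times the mean of the 4 WT libraries.

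Bid, the most abundant BH3-only gene, encodes a protein that caspase-8 cleaves into an activator of BAX and BAK, which ties death receptors to mitochondria. Bid was at 41.1, 28.8, 28.4 and 22.1 RPKM in KO1 to KO4, against 19.6, 6.84, 43.6 and 28.6 RPKM in WT1 to WT4. All KO values lay inside the WT range, which ran from WT2 to WT3, and the means were 30.1 ± 7.95 RPKM in KO and 24.7 ± 15.5 RPKM in WT (SD, n = 4 each). The log2 difference was 0.50 ± 0.48 (SE; limma adjusted p = 0.784), and without WT2 it was 0.01. Of its exon bases 17.7% are shared with the family gene Bcl2l13 on the other strand.

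Bad encodes a BH3-only protein that growth factor signalling holds inactive by phosphorylation. It was at 7.91, 5.76, 0 and 8.17 RPKM in KO1 to KO4, against 5.04, 0, 7.69 and 6.94 RPKM in WT1 to WT4. Apart from KO3 and WT2, which listed it at 0, the 6 values lay within 5.04 to 8.17 RPKM with no order by genotype. Its log2 difference was 0.10 ± 0.91 (SE; limma adjusted p = 0.979). Bad shares 20.5% of its exon bases with Gpr137 on the other strand.

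Bcl2l11 encodes BIM, which binds all survival proteins of the family and is known for its role in the death of blood cells. It was at 2.58, 3.35, 6.02 and 7.59 RPKM in KO1 to KO4, against 10.1, 5.08, 3.10 and 2.16 RPKM in WT1 to WT4. Both ends of the range were WT libraries, and KO1 and KO2 lay below KO3 and KO4, as they did for Mcl1. The means were 4.89 ± 2.33 RPKM in KO and 5.11 ± 3.53 RPKM in WT (SD, n = 4 each), with a log2 difference of 0.03 ± 0.54 (SE; limma adjusted p = 0.992) that was -0.46 in lane 4 alone.

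Bbc3, which encodes PUMA, and Pmaip1, which encodes NOXA, are both induced by p53, and NOXA binds MCL1. Bbc3 was at 2.47, 5.27, 0 and 0 RPKM in KO1 to KO4, against 7.54, 3.28, 2.52 and 2.09 RPKM in WT1 to WT4. Pmaip1 was at 7.20, 4.201, 0 and 0 RPKM in KO1 to KO4, against 3.72, 7.20, 5.92 and 2.98 RPKM in WT1 to WT4. For both genes KO3 and KO4 listed 0, and the values of KO1 and KO2 lay inside the WT range. The log2 differences were -1.05 ± 0.70 for Bbc3 and -1.16 ± 0.76 for Pmaip1 (SE; limma adjusted p = 0.721 and 0.716). In lane 4 alone they had the opposite sign, at 0.06 ± 0.53 for Bbc3 and 0.19 ± 0.43 for Pmaip1. Trp53 itself was at 67.8, 65.3, 84.8 and 48.2 RPKM in KO1 to KO4, against 61.1, 49.0, 65.6 and 68.8 RPKM in WT1 to WT4.

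The libraries differed in which members they set high or low. WT1 had the highest value of Mcl1, Bcl2l11 and Bbc3, WT2 of Bcl2l1 and Pmaip1, and KO1 of both effectors, Bax and Bak1. KO3 had the lowest value, ties at 0 included, of 5 members, namely Bax, Bak1, Bad, Bbc3 and Pmaip1. Of the 10 members, 4 were under 0.1 RPKM in KO3, 3 in KO4 and 1, Bad, in WT2, and 6 were at 1 RPKM or more in all 8 libraries. Of 9337 tested genes with at least 1 RPKM in all lane 4 libraries, 19.9% were under 0.1 RPKM in KO3, 6.39% in KO4 and 3.49% in both. Among these genes were 9 members, of which 3, Bax, Bbc3 and Pmaip1, were under 0.1 RPKM in both. The difference in share was not tested.

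Summed by role, the 3 survival genes gave 93.4, 96.0, 144 and 142 RPKM in KO1 to KO4, against 252, 158, 139 and 113 RPKM in WT1 to WT4. The sums averaged 119 ± 27.9 RPKM in KO and 166 ± 60.2 RPKM in WT (SD, n = 4 each), and the ranges overlapped. Mcl1 made up 72.4% to 86.2% of this sum in KO and 79.5% to 92.9% in WT. The 2 effector genes gave 127, 93.8, 12.5 and 59.3 RPKM in KO1 to KO4, against 57.7, 60.8, 74.6 and 70.9 RPKM in WT1 to WT4, so that KO libraries lay both above and below all WT libraries. The 5 BH3-only genes gave 61.3, 47.4, 34.4 and 37.8 RPKM in KO1 to KO4, against 46.0, 22.4, 62.8 and 42.8 RPKM in WT1 to WT4. As a share of the sum over all 10 members, survival genes made up 33.2%, 40.5%, 75.4% and 59.3% in KO1 to KO4, and 70.8%, 65.5%, 50.4% and 49.9% in WT1 to WT4. KO1 and KO2 had the lowest survival shares of the 8 libraries, and KO3, in which Bax was listed at 0, the highest.

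**Figure D3:**
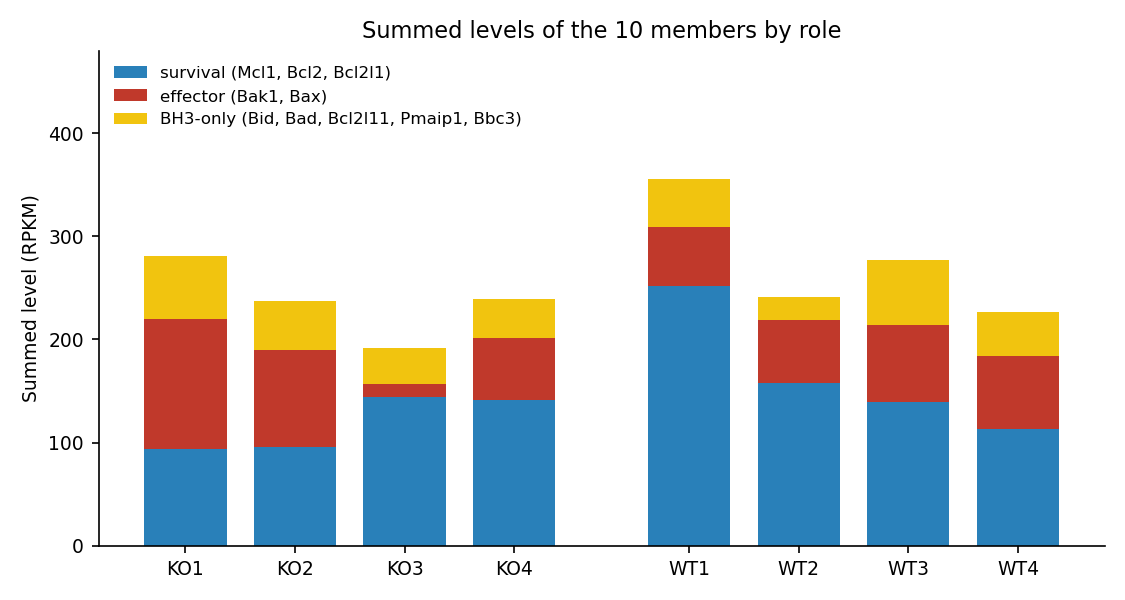
Summed RPKM of the survival, effector and BH3-only members in each library, with KO libraries left and WT libraries right. KO1 and KO2 show the lowest survival sums, 93.4 and 96.0 RPKM, and the highest effector sums, 127 and 93.8 RPKM, and KO3 the lowest effector sum, 12.5 RPKM.

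Likeness between members was measured as the root mean square difference of their centred log2(RPKM + 1) over the 8 libraries, among the other members and the tested genes of the cell death lists described next. Mcl1 and Bcl2l11 were each other's nearest gene of 49 (0.35 log2 units, against a median over all 49 of 0.66 for Mcl1 and 0.71 for Bcl2l11). Usp9x was almost as near, at 0.37 to Mcl1 and 0.40 to Bcl2l11. The spread of each gene about its own mean was 0.51 for Mcl1 and 0.60 for Bcl2l11. Bbc3 and Pmaip1 were likewise each other's nearest (0.67), and both share the zeros of KO3 and KO4. The nearest gene to Bax was Pmaip1 (1.25), to Bad the family gene Bok (0.58) and to Bak1 the family gene Bcl2l13 (0.52). Distances of genes that vary little, such as Bcl2 to the 14-3-3 gene Ywhab (0.17), are small for that reason, and all points share the same libraries.

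Around these 10 genes, 4 lists of cell death genes with 50 members were examined, of which 40 passed the filter. In limma 0 of the 40 were called higher and 0 lower, 2 had an unadjusted p under 0.05, and 2 (5%) had all KO values on one side of all WT values, against 5.92% of all genes tested. Of 16 other BCL2 family genes 6 were tested, with 4 log2 differences below 0 and a median of -0.33, against -0.14 over all genes. Among the other 10, the Bcl2a1 genes, NF-κB targets known from mouse and human, were listed at 0 in all 4 KO libraries, and in WT only Bcl2a1b in WT4 (2.84 RPKM) and Bcl2a1d in WT1 (2.82) and WT3 (2.92) were above 0. These genes are near-identical copies, so reads may be split among them. None reached the filter, and no difference between the groups was tested for them. Values of 0 were also not equally frequent. Genes above 0 numbered 13571, 13689, 9055 and 10674 in KO1 to KO4, and 11169 to 12970 in WT. Bcl2l12 was at 33.1, 40.2, 85.5 and 9.95 RPKM in KO1 to KO4 and at 20.1 to 22.3 RPKM in WT, 3 KO libraries above and 1 below the WT band (log2 difference 0.61 ± 0.51, SE; limma adjusted p = 0.759). Bcl2l2, a survival gene encoding BCL-W, was at 4.53, 4.15, 7.17 and 0 RPKM in KO and at 4.53 to 9.54 RPKM in WT. Bnip3l and Bnip3, which encode mitophagy receptors, had log2 differences of -0.41 ± 0.28 and -0.96 ± 0.75 (SE), and Bcl2l13 had 0.12 ± 0.41.

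Of 8 genes of the apoptosome and caspases, all were tested and 7 log2 differences lay below 0, with a median of -0.28. Cycs, cytochrome c, was at 44.0, 32.5, 0 and 14.9 RPKM in KO and at 22.3 to 38.9 RPKM in WT. Casp8, the initiator caspase of death receptors, was at 54.9 ± 10.1 RPKM in KO and 59.2 ± 4.45 RPKM in WT, and Casp2 at 39.6 ± 10.7 RPKM in KO and 41.7 ± 9.44 RPKM in WT (SD, n = 4 each). The executioner caspase gene Casp6 had a log2 difference of -0.44 ± 0.35 (SE).

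Of 9 genes of inhibitor of apoptosis proteins and proteins released from mitochondria, all were tested, 4 lay below 0, and the median was 0.02. Birc6, which encodes a giant ubiquitin ligase that restrains caspases, was at 7.62, 10.6, 7.09 and 10.2 RPKM in KO1 to KO4, against 16.6, 14.6, 10.6 and 11.1 RPKM in WT1 to WT4. Its highest KO value, 10.57 RPKM in KO2, lay just under its lowest WT value, 10.62 RPKM in WT3, and the log2 difference was -0.53 ± 0.30 (SE; limma adjusted p = 0.696). Diablo, which encodes the IAP antagonist SMAC, was at 7.88, 13.2, 0 and 13.2 RPKM in KO and 16.3, 6.99, 18.1 and 17.8 RPKM in WT. Birc3, which encodes cIAP2 and is an NF-κB target, was at 6.89, 7.90, 0 and 3.19 RPKM in KO and 4.52 to 9.13 RPKM in WT. Birc5, survivin, was at 39.3 ± 3.82 RPKM in KO and 36.9 ± 1.34 RPKM in WT (SD, n = 4 each). Htra2 and Aifm1 had log2 differences of 0.15 ± 0.29 and -0.01 ± 0.30 (SE).

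Of 17 partners and regulators of BCL2 proteins, all were tested, 8 lay below 0, and the median was 0.02. Bcap31, which encodes an endoplasmic reticulum protein that binds BCL2, was at 71.2, 81.2, 82.5 and 59.2 RPKM in KO1 to KO4, against 101, 119, 114 and 80.2 RPKM in WT1 to WT4. WT4 overlapped the KO range and the other 3 WT libraries lay above it (log2 difference -0.48 ± 0.19, SE; limma adjusted p = 0.634). Huwe1, which encodes a ubiquitin ligase of MCL1, was at 26.2 ± 4.597 RPKM in KO and 34.1 ± 4.48 RPKM in WT (SD, n = 4 each; log2 difference -0.37 ± 0.22, SE). The 14-3-3 gene Ywhaz had a log2 difference of -0.48 ± 0.23 and Ywhab of -0.15 ± 0.15 (SE). The channel gene Vdac1 was at 256 ± 25.7 RPKM in KO and 230 ± 35.4 RPKM in WT, and Tmbim6, which encodes BAX inhibitor 1, at 219 ± 36.5 RPKM in KO and 205 ± 8.50 RPKM in WT (SD, n = 4 each).

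**Figure D4:**
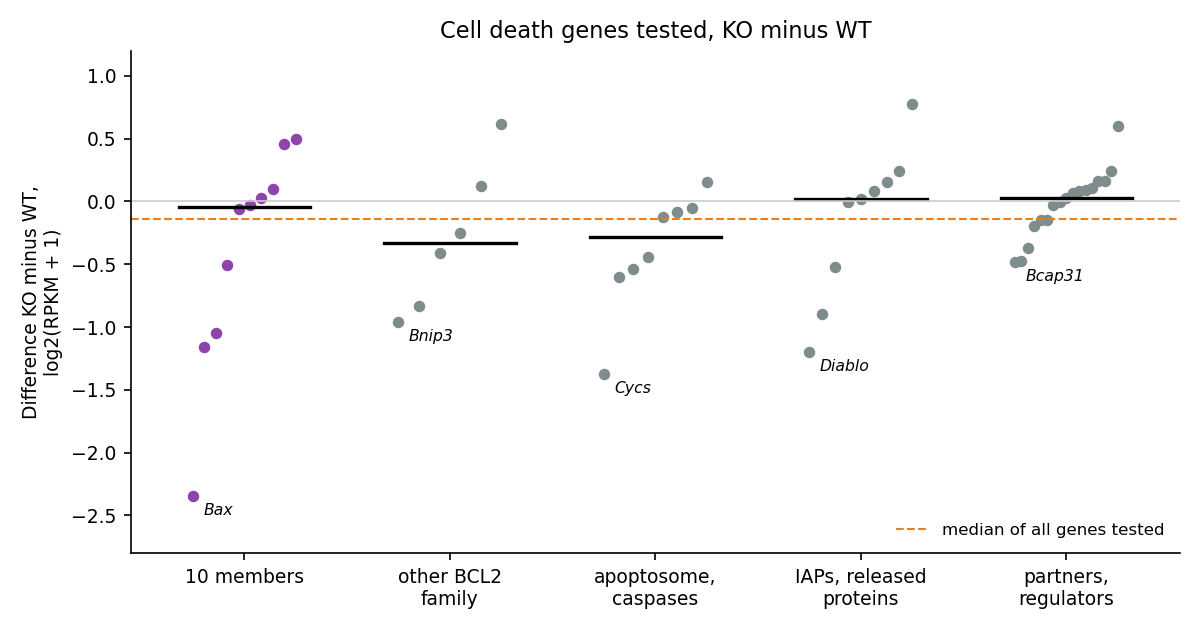
Difference KO minus WT on the log2(RPKM + 1) scale of the 10 members and the 40 tested genes of 4 cell death lists, 1 point per gene, with the median of each list as a black line, the lowest gene named, and the median of all genes tested, -0.14, as a dashed line. The list medians run from -0.33 to 0.02, and none of the genes passed the adjusted threshold.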

How the data were processed

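Poly(A) RNA of LSK cells was measured in 8 libraries, 4 KO and 4 WT, grouped by title and genotype. TopHat, edgeR and the build mm9 were used, per the submitters' processing notes, which give no version or role. How reads were counted, with which annotation and filters, is not stated in these sources. The unit of the deposited values, RPKM, is inferred from the values: times the longest annotated transcript length, they sum to between 1.14 and 1.17 M per library (M, mega). Times the median transcript length they sum to between 521768 and 539565, so the inference depends on the length used. Of 24112 gene IDs, 24029 were matched to symbols of a GRCm38.p6 table, used for names, promoters and exon overlaps. Low values of genes with a lone transcript gave an approximate depth of 19.3 to 30.6 M reads per library, where 26.3% to 57.5% of 49 to 95 values were whole within 0.03 reads. Whole reads were not recovered, so no count test or counting interval is given.

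Values were tested as log2(RPKM + 1), a scale that understates changes of low genes, in the 11276 genes that reached 1 RPKM in 4 or more libraries. The test was limma 3.58.1 in R 4.3.3, with a robust, trended eBayes prior and all 8 libraries, with Benjamini-Hochberg adjustment over all genes tested and a threshold of 0.05. Exact permutation tests were 2-sided over 70 assignments. The fit was tested on simulated data. Members and lists were chosen with earlier results of these data known. Besides the 10 members, the genes named are, per list, the 3 of highest level and the 3 of smallest p, except that some genes are not reported here. Trp53, the Bcl2a1 genes and Ggnbp1 were added with their values known. Within a group, no pair of libraries shared a value above 0 among the genes tested. Alternatives were other filters, a pseudocount of 0.1, quantile normalization, median centring, lane, replicate block, library weights and leaving out libraries.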

Additional observations from a re-analysis of the deposited data

Results flagged for a closer look

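Among the members themselves Dixon's gap test on RPKM flagged no library. The test sets 1 library against the other 3 of its group, so it cannot flag libraries that lie together. KO3 and KO4 did so at or near 0 for Bax, Bbc3 and Pmaip1. Of 70 groups of 4 libraries examined over the members, their sums and the named cell death genes, 5 were flagged because 1 library's gap to the nearest other exceeded Dixon's 95% critical value for 4 samples, and chance flags about 1 in 20. Of these, 3 lay in WT libraries: Bcl2l13 was lowest in WT2 at 4.96 RPKM, Diablo was lowest in WT2 at 6.99 RPKM, and Ywhab was highest in WT1 at 168 RPKM. The others lay in KO3, where Bnip3 was at 0.0252 RPKM and Casp8 at 39.9 RPKM.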

How the results depend on the processing

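No member and no gene of the 4 cell death lists passed the adjusted threshold under any of the 18 alternatives, while over all genes the count of 0 became 2 in lane 4 alone, 3 without WT2, KO3 and KO4, 164 with library weights, and 0 to 2 on leaving out single libraries, with 2 without KO3. Of 178 alternative values of the members' log2 differences, 143 kept their sign and 35 changed it, and the cause was not tested. The other filters and the replicate block cannot alter these differences, so the signs kept there were fixed in advance. The tally also counts lane as a covariate and lane 4 alone separately, although their differences are the same. It is therefore no measure of stability. Mcl1 stayed below 0 and Bak1 and Bid above 0 throughout. Library weights gave KO2 6.50 and KO3 0.137, and with them the adjusted p was 0.107 for Mcl1 and 0.0739 for Bak1, where all settings spanned 0.107 to 0.897 and 0.0739 to 0.915. Lane as a covariate and lane 4 alone gave the same log2 differences, since both take KO from KO1 and KO2, but not the same errors (Bak1 SE 0.51 with the covariate and 0.22 in lane 4 alone), and they turned Bcl2l1 (0.079), Bax (0.48), Bcl2l11 (-0.46), Bbc3 (0.063) and Pmaip1 (0.19). Without WT2, KO3 and KO4 the same 5 genes turned, at 0.44, 0.46, -0.41, 0.043 and 0.37. Quantile normalization turned Bcl2 (0.048) and Bcl2l1 (0.27), median centring Bcl2 (0.075) and Bcl2l1 (0.049), and library weights Bcl2 (0.16), Bcl2l1 (0.32), Bcl2l11 (-0.18) and Bbc3 (0.26). Leaving out 1 library each gave -0.13 to 0.087 for Bcl2, -0.33 to 0.31 for Bcl2l1, -0.69 to -0.23 for Mcl1, -3.34 to -1.39 for Bax, 0.19 to 0.99 for Bak1, -0.24 to 0.37 for Bcl2l11, 0.01 to 0.85 for Bid, -0.62 to 0.86 for Bad, -1.56 to -0.68 for Bbc3 and -1.72 to -0.71 for Pmaip1. The summed difference KO minus WT moved from 7.07 to 44.2 RPKM for the effectors in lane 4 alone and to 42.5 RPKM without WT2, KO3 and KO4, with -10.8 to 27.2 RPKM on leaving out single libraries. That range was -64.2 to -18.1 RPKM for the survival genes and -5.31 to 8.16 RPKM for the BH3-only genes. Deviations of same-numbered KO and WT libraries correlated at -0.08 to -0.04, and those of the other pairs at -0.09 to 0.14. The deviations were centred within each small group, which ties them to one another, so this check cannot show whether KO and WT libraries were paired. The replicate block kept the count at 0 of 11276 genes. Each block holds a KO and a WT library, so blocking cannot change the log2 differences (Mcl1 -0.50, Bak1 0.45). Only their errors could move, to an SE of 0.34 for Mcl1 and 0.39 for Bak1. Bbc3 and Pmaip1 could not be tested under the filter of 5 RPKM. Depth, known only approximately, was 30.55, 30, 22.5 and 25.15 M reads in KO1 to KO4 and 19.3 to 24.8 M in WT. That it is approximate limits what a value of 0 shows.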
